A study of Mus musculus with 6 samples.

Results

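The genes described here are 8 interferon-inducible members of the tripartite motif (TRIM) family: Trim12a, Trim12c, Trim14, Trim21, Trim25, Trim30a, Trim30d and Trim34a. They were taken by gene symbol from a table of 22475 genes, which held 55 TRIM genes in all, and each symbol matched 1 row. RNA had been sequenced from bone marrow cells sorted as Lin-, cKit+ and Sca1+, a fraction enriched for blood stem and progenitor cells. Every mouse, controls included, was homozygous for FLT3-ITD, an activating internal tandem duplication of the receptor tyrosine kinase FLT3. The control group (FLT3-ITD) was wild type for the microRNA miR-155, and the other group (FLT3-ITD miR-155-/-, below KO) carried a homozygous deletion of it. Each group had 3 libraries, each made from the pooled RNA of 3 mice, so that the error given is the spread between pools. The sources used here did not give the strain, age or sex of the mice. The comparison asked how RNA in FLT3-ITD progenitors differs when miR-155 is missing.

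TRIM proteins are named for a RING domain, B-box and coiled coil in a row, and many carry a PRY-SPRY domain at the C terminus that binds the target. The RING domain makes most of them ubiquitin ligases. Type I interferons raise many TRIM genes through interferon-stimulated response elements in their promoters. Several of the proteins then act on the sensors of foreign RNA or DNA, on NF-kB signalling or on viral particles.

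Library totals lay between 6843129 and 9443615 counts. Gm26667, a noncoding gene at the locus that hosts Mir155, had 33, 48 and 36 counts in the controls, while the KO libraries had 4, 14 and 4, which is a check on the labels of the deletion. Kit, Ly6a (Sca1) and Flt3 were present in every library, with CPM (counts normalized to library size) of 323 ± 74.6, 112 ± 8.53 and 257 ± 45.7 in the controls (SD, n = 3). Summed over 9 macrophage markers, both libraries of replicate number 1 stood apart, at 954 CPM (control) and 743 CPM (KO), and the other 4 libraries had 188 to 328. Summed over 10 B and plasma cell markers, the controls had 3060 to 4420 CPM and the KO libraries 692 to 1760. Neutrophil and monocyte markers summed to 3190 to 4450 CPM in the controls and 3570 to 3820 in the KO. Of these, S100a8, S100a9, Ngp, Ltf, Camp, Retnlg and Ly6g were lower in every KO library than in every control. Elane, Mpo, Ccr2 and Ly6c2 overlapped. T and NK cell markers had 95.9 to 112 (control) and 83.5 to 92.3 (KO). Among them only Cd28 was lower in every KO library (9.02, 6.9 and 12.2 CPM) than in every control (23.3, 15.4 and 23.3). The rest of that list overlapped, and Cd8a was highest in KO replicate 1 (19.6). Erythroid markers had 11.1 to 26.8 (control) and 7.54 to 16.5 (KO). The sum of stem and progenitor markers was lowest in both libraries of replicate number 1, at 1550 CPM (control) and 1460 CPM (KO). The others had 2060 to 2270. Cd34 made up 748 and 649 CPM of these 2 lowest sums. Kit, Cd34, Meis1, Mecom, Hlf and Procr were each lowest in both libraries of number 1. Ly6a was instead the highest of its group there (121 CPM in the control, 127 in the KO). Flt3 and Slamf1 were not lowest in both.

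Most of the members lie in 1 gene cluster. In GENCODE M21 (GRCm38, the assembly also called mm10), Trim34a (chr7:104244457-104262234), Trim12a (chr7:104299894-104315466), Trim12c (chr7:104338754-104353362), Trim30a (chr7:104409025-104465193) and Trim30d (chr7:104470014-104507849) belong to a cluster of 11 TRIM genes within 317 kb, in which Trim30a and Trim30d are the only pair of members with no other TRIM gene between them. Trim21 (chr7:102557921-102565486) lies 1.65 Mb away from that cluster on the same chromosome. Trim14 (chr4:46493781-46536141) and Trim25 (chr11:88999376-89020293) stand alone on other chromosomes. All 8 are annotated as protein coding.

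Most of the members share a promoter feature. They were taken as interferon-inducible genes, so an interferon response element near their starts is not independent of that choice. The RefSeq promoter table (GRCm38.p6), which gives 250 bases before and 50 after each start, held 7 of the 8, all but Trim14. The core of the interferon-stimulated response element was searched on both strands as GAAANNGAAA, and as GAAANNGAAAC, a longer form that contains it. The shorter form was found near the start of 6 of the 7 (Trim12a, Trim12c, Trim21, Trim30a, Trim30d and Trim34a), in 3 of 35 other TRIM genes with a promoter entry (Trim2, Trim5 and Trim26), and in 3.99% of all 27025 genes in that table. The longer form was present in 5 of the 7, in 2 of the 35 other TRIM genes (Trim2 and Trim5) and in 0.944% of all genes. The core of the gamma-activated site, TTCNNNGAA, was in none of the 7 and in 9.55% of all genes. A match is a string of letters in a window and was not tested for binding.

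The windows below run from 70 bases before the RefSeq start to 30 bases after its first base, 5′ to 3′ on the strand of the gene, and are shown because they carry the shared core, which is in capitals (for all but Trim21 it reads on the other strand, so that TTTC appears in place of GAAA).
Trim30a, chr7:104465164-104465263, minus strand: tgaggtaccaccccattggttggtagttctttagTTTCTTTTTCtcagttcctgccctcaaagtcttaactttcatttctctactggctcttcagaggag
Trim30d, chr7:104507820-104507919, minus strand: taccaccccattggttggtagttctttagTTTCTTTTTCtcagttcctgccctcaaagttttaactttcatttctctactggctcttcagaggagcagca
Trim12c, chr7:104353320-104353419, minus strand: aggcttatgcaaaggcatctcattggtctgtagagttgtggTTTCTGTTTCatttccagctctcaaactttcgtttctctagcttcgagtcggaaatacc
Trim12a, chr7:104315466-104315565, minus strand: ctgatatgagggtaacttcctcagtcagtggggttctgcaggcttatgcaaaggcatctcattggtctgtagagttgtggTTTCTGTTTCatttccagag
Trim34a, chr7:104244387-104244486, plus strand: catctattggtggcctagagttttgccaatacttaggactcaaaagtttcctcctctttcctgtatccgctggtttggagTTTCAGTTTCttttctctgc
Trim21, chr7:102565453-102565552, minus strand: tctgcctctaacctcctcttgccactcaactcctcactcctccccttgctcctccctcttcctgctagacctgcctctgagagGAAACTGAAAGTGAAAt

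Within each of 2 pairs of paralogs, the stretch around the core was identical. Trim30a and Trim30d shared an identical run of 118 bases that holds the core, which sat at positions -36 to -27 in Trim30a and -41 to -32 in Trim30d, counted from the start. Trim12a and Trim12c shared an identical run of 63 bases around the core, at 11 to 20 bases after the start in Trim12a and at -29 to -20 in Trim12c, so the same stretch lies on either side of the annotated starts. In Trim34a the core lay 11 to 20 bases after the start. Trim21 had a pair of overlapping cores on its own strand, at 14 to 23 and 20 to 29. A second RefSeq start of Trim30a, downstream of the first, also had a core, at 3 to 12, and Trim25 had none within its window.

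**Figure D1:**
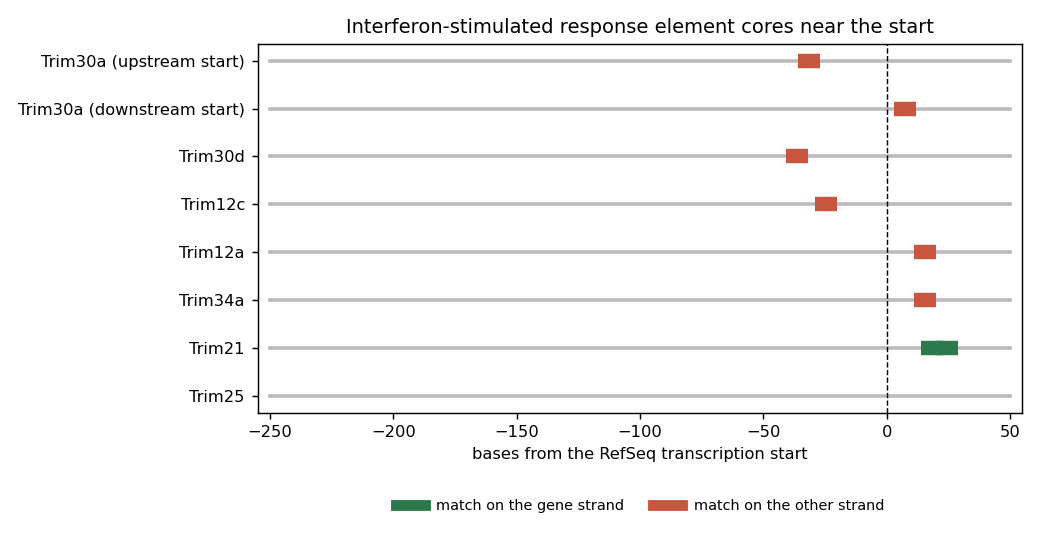
Position of the interferon-stimulated response element core in the RefSeq promoter windows of 7 members (x axis: bases from the start, from 250 before it to 50 after; one line per window, the 2 starts of Trim30a separately). Every match lies within 41 bases before or 29 bases after a start, and the window of Trim25 has none.

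Matches to the seed of the deleted microRNA were searched in the members' 3′ UTRs. Mature miR-155-5p (RefSeq, GRCm38.p6, chr16:84714143-84714165, plus strand) is printed with its seed, bases 2 to 8, in capitals, and pairs with AGCATTA in a target.
mmu-miR-155-5p: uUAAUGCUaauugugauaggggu
Trim30a 3′ UTR, chr7:104409805-104409833, minus strand: tctctccacatAGCATTAcaaccctgaat
In the longest annotated 3′ UTR of each member, only that of Trim30a held a match to the seed, 1 site of 7 bases at position 1255 of 2052 (in capitals above). The other 7 members had none, among them Trim30d with a 3′ UTR of 2029 bases and Trim25 with 3572. For comparison, 12.61% of 21039 genes with a 3′ UTR had a match of 7 or 8 bases. That share counts AGCATTA, AGCATTAA and also GCATTAA, which matches bases 2 to 7 followed by an A. The 8-base match AGCATTAA was in 2.99%. No member had AGCATTAA or GCATTAA. The members' 1 of 8 is thus near the share over all genes.

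Levels of the members are compared per length, in the authors' FPKM (fragments per kilobase of transcript, scaled to library size). Trim30a, whose protein is known to lower NF-kB signalling by promoting loss of the adaptors Tab2 and Tab3, was the most abundant member in all 6 libraries, with 74.5 ± 23.8 FPKM (SD over the 6 libraries) and a lowest value of 53.2. It was second among the 55 TRIM genes, after Trim28 at a mean of 131 FPKM, and above 94.3% of the genes tested. Trim21 (21.8 ± 2.1) and Trim30d (21.0 ± 6.79) came next and exchanged places between libraries, Trim21 being the higher in 4 of 6. Trim12c (15.1 ± 2.05) was above Trim14 (13.3 ± 1.48) in 5 libraries, and Trim14 was above Trim25 (10.8 ± 0.902) in all 6. Trim34a (9.07 ± 1.87) and Trim12a (8.01 ± 0.931) were lowest, and Trim34a was the higher of the pair in 4 libraries. Only the step from Trim30a to the next member separated the ranges over the 6 libraries. The ranges of all other neighbours in this order overlapped.

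All 8 members had a higher mean in the KO, by 1.09 to 1.41 times, and none passed the test. The median log2 fold change was 0.18, beside 0.001 over all 13217 genes tested. With edgeR's quasi-likelihood test, adjusted over all genes by the Benjamini-Hochberg method, 0 of 8 had an adjusted p under 0.05 (background: 0.159% of genes, 21 in all), and 0 of 8 had an unadjusted p under 0.05 (background: 3.9% of genes). DESeq2 and limma-voom called none either. A positive fold change was found for 50.2% of all genes, and the 8 members in part share promoter letters, a gene cluster and sequence, so that their common direction is a description and not 8 separate results.

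The differences were largest for the Trim30 paralogs. Values below follow the order of replicates 1, 2 and 3. Trim30a had 344, 251 and 233 CPM in the controls and 551, 325 and 284 in the KO. Control replicate 1 was above KO replicates 2 and 3, so the groups overlapped. Its log2 fold change was 0.49 ± 0.26 (SE; adjusted p 0.9996 in edgeR). Trim30d, a close paralog, had 81.1, 57.4 and 59.7 CPM in the controls and 133, 81.7 and 64.8 in the KO, again with number 1 highest in both groups and an overlap. Its log2 fold change was 0.49 ± 0.27 (SE; adjusted p 0.9996 in edgeR). The ratio of Trim30a to Trim30d, per length, was alike in both groups: 3.55 ± 0.20 in the controls and 3.55 ± 0.17 in the KO (SD, n = 3).

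Trim12a and Trim12c are mouse relatives of the antiviral factor TRIM5, and Trim34a belongs to the same cluster. Trim34a had 36.4, 34.3 and 32.3 CPM in the controls and 52.5, 45.8 and 30.9 in the KO. KO replicates 1 and 2 were above every control and KO replicate 3 was below every control. Its log2 fold change was 0.32 ± 0.19 (SE; adjusted p 0.9996 in edgeR). Trim12c had 57.2, 52.5 and 48.3 CPM in the controls and 73.1, 58.5 and 50.2 in the KO, and a log2 fold change of 0.20 ± 0.15 (SE). Trim12a had 44.6, 42.5 and 45.5 CPM in the controls and 59.6, 41.5 and 44.8 in the KO. For Trim12a only KO replicate 1 was above the controls, and the log2 fold change of 0.14 ± 0.14 (SE) became -0.03 without that library. For Trim12c, control replicate 1 was above KO replicate 3, and the groups overlapped. Both had an adjusted p of 0.9996 in edgeR.

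The members with a known step in the sensing of nucleic acids or antibody-coated virus, Trim25, Trim21 and Trim14, had log2 fold changes of 0.12 to 0.16. Trim25, the ubiquitin ligase that activates the RNA sensor RIG-I and also attaches Isg15, had 61.6, 53.6 and 60.3 CPM in the controls and 73.6, 59.6 and 63.1 in the KO, a log2 fold change of 0.16 ± 0.11 (SE). Trim21, the cytosolic receptor for the Fc part of antibodies, had 54.2, 58.3 and 60.0 CPM in the controls and 71.3, 64.3 and 55.4 in the KO, a change of 0.15 ± 0.11 (SE). Trim14, which has no RING domain and acts as an adaptor of the mitochondrial protein Mavs, had 30.9, 36.0 and 38.3 CPM in the controls and 39.0, 41.2 and 34.1 in the KO. Its log2 fold change was 0.12 ± 0.12 (SE), the smallest of the 8, and it was the only member whose highest library was KO replicate 2. For each of these genes the groups overlapped, and the adjusted p was 0.9996 in edgeR.

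**Figure D2:**
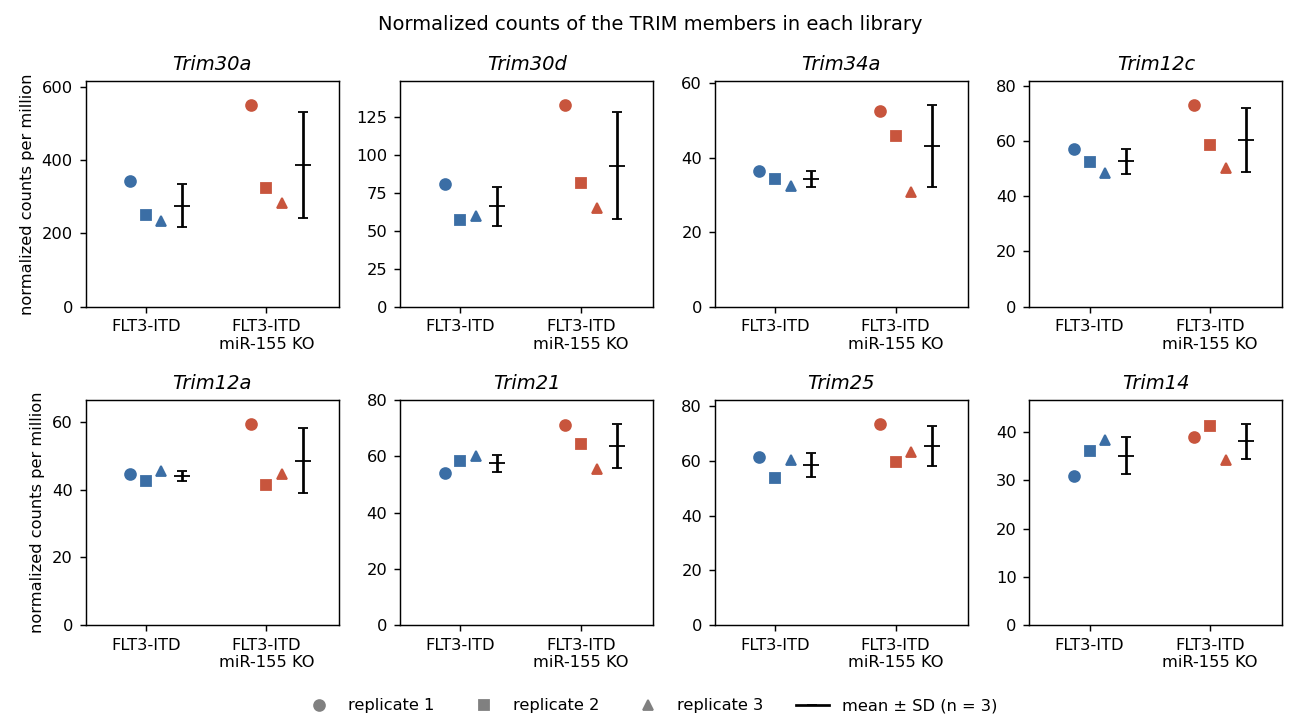
Normalized CPM of each member in the 3 FLT3-ITD and 3 FLT3-ITD miR-155 KO libraries (points, shaped by replicate number; y axes start at 0 and differ between panels), with the mean and SD of each group in black. KO replicate 1 is the highest library for every member but Trim14, and the groups overlap in every panel.

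KO replicate 1 was the highest library for 7 of the 8 members. Relative to each gene's mean log2 CPM over the 6 libraries, the members' median was 0.38 in KO replicate 1, 0.08 in KO replicate 2 and -0.14 in KO replicate 3, and -0.03, -0.13 and -0.12 in the controls. Without KO replicate 1 the median log2 fold change of the 8 was 0.091, with Trim30a at 0.15, Trim30d at 0.15 and Trim34a at 0.17. KO replicate 1 was also the library with the highest sum of 9 dendritic cell markers, 1410 CPM against 814 to 965 in the other 5. Clec9a (330 CPM), Xcr1 (269) and Itgax (183) were among those highest in KO replicate 1. Flt3 (246, against 287 in control replicate 2) and Tcf4 (180, against 216 in control replicate 3) were not. That list holds Bst2, which interferon also raises. Macrophage markers were high in this library and in control replicate 1, as given above, and none of the 9 macrophage or 9 dendritic cell markers was at 0 in all libraries. Their part in the members' levels was not tested, and in these bulk samples more cells of a type and more RNA per cell cannot be told apart.

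Replicate numbers recur in both groups. Libraries of equal number deviated together from their group means (r = 0.573, 0.526 and 0.219 for numbers 1, 2 and 3), so the members were also compared within each number. No label states that equal numbers are pairs, so this pairing rests on the same data. In the pair of number 1 all 8 members were higher in the KO, with a median log2 difference of 0.41. In the pair of number 2, 7 were higher (median 0.18), and in the pair of number 3, 4 were higher (median 0.02). The medians over all tested genes were -0.001, -0.01 and 0.002 in these pairs. Trim30a was higher in the KO in all 3 pairs, by 0.68, 0.37 and 0.28 on the log2 scale, and so were Trim30d (0.71, 0.51 and 0.12), Trim12c (0.35, 0.16 and 0.06) and Trim25 (0.26, 0.15 and 0.06). These 4 of 8 compare with 15.1% of all tested genes. The other 4 members, Trim12a, Trim14, Trim21 and Trim34a, were lower in the KO of number 3, by at most 0.17. No member had all 3 KO libraries above all 3 controls (0 of 8; background 3.43% of tested genes).

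**Figure D3:**
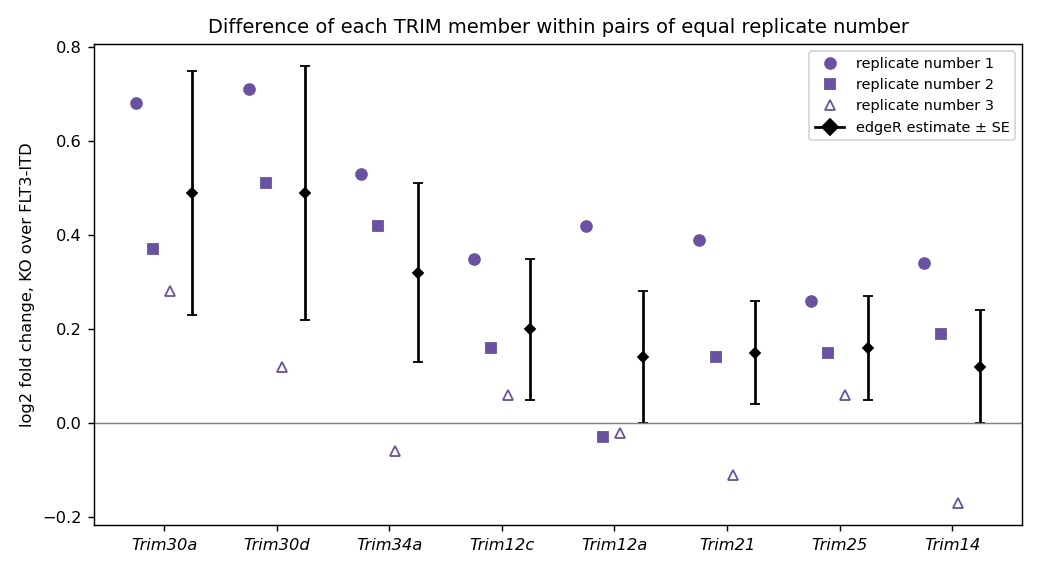
Log2 fold change of KO over FLT3-ITD for each member within pairs of libraries of equal replicate number (purple) and as the edgeR estimate with its SE (black diamond; group fit without a block). The pair of number 1 is highest for every member, and the pair of number 3 lies between -0.17 and 0.28.

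Fitted with the replicate number as a block, 180 genes were called in place of 21, and none of the 8 members passed (0 of 8; background 1.36%). At an unadjusted p under 0.05 there were 3 of 8, Trim30a, Trim30d and Trim34a (background 9.35%). Trim30a came closest, with 0.45 ± 0.09 (SE) and an adjusted p of 0.102 in edgeR, followed by Trim30d at 0.45 ± 0.11 and an adjusted p of 0.197. Without both libraries of number 1 the estimates of Trim30a and Trim30d were 0.33 each (adjusted p 0.512 and 0.786 in edgeR), and those of Trim14 and Trim21 were 0.02 each. The authors' deposited table also gave no member an adjusted p under 0.05, with a log2 fold change of 0.487 for Trim30a, 0.493 for Trim30d and 0.121 to 0.326 for the other 6.

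Along the chromosome 7 cluster, 9 of the 11 TRIM genes had enough counts to be tested, and 8 of the 9 had a positive fold change (median 0.32). The non-members Trim30b (0.41 ± 0.22), Trim30c (0.49 ± 0.28) and Trim5 (0.24 ± 0.16, log2 fold change and SE) had estimates within the range of the members. Trim6, at the end of the cluster next to Trim34a, had -0.12 ± 0.26, and its counts (80, 120 and 107 in the controls and 51, 95 and 91 in the KO) were lowest in number 1. None of these 4 passed (adjusted p 0.9996 each in edgeR). Trim34b had 3 to 8 counts per library and the pseudogene Trim30e-ps1 0 to 2, too few to test.

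**Figure D4:**
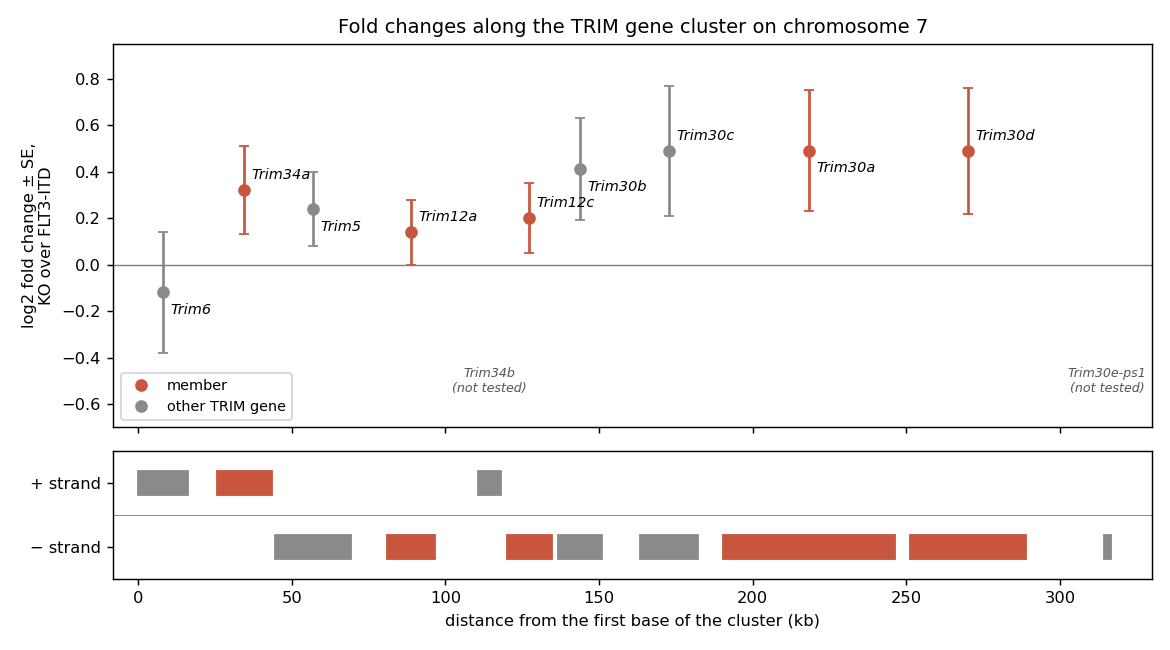
Log2 fold change of KO over FLT3-ITD with its SE along the TRIM cluster on chromosome 7 (upper panel; x axis: distance in kb from the first base of the cluster), and the genes' extent by strand (lower panel; members in red, other TRIM genes in grey). Estimates run from -0.12 for Trim6 to 0.49 for Trim30a, Trim30c and Trim30d, and every member lies above 0.

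Counts of these paralogs are uncertain where reads fit more than 1 gene. Of all stretches of 50 bases in the longest coding transcript, 41.3% of those of Trim34a also occurred in Trim34b, 24.5% of those of Trim12c and 17.9% of those of Trim12a in Trim5, and 6.5% of those of Trim30a in Trim30d. Trim14, Trim21 and Trim25 shared at most 0.3%. Taken as whole gene spans with introns, Trim14 overlaps Nans on the opposite strand by 9852 bases. Trim12a overlaps Gm15133 on the opposite strand by 448 bases, and Trim30d overlaps the pseudogene Gm16464 on the same strand by 1095. Overlap of exons was not examined. Where exons on opposite strands overlap, reads cannot be told apart without strand.

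The other TRIM genes had fold changes of both signs. Of 47, 34 were tested, 22 had a positive and 12 a negative fold change, the median was 0.06, and 0 rose and 0 fell with or without the block. The smallest p among them belonged to Trim46 (-0.69 ± 0.34), Trim30b, Trim30c and Trim37, a ubiquitin ligase of peroxisomes and centrosomes (-0.17 ± 0.10, log2 fold change and SE). The adjusted p was 0.9996 in edgeR for all 4. The difference between members and other TRIM genes was not tested.

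The pathways in which the members act differed in size from list to list. Of 13 genes of the RNA sensing chain, 10 had a positive fold change (median 0.14) and 0 passed. With the block 2 of 13 rose (background: 1.36% of tested genes called in either direction). They were Irf7, the transcription factor that amplifies interferon production (0.88, adjusted p 0.00477 in edgeR), and Ifih1, the RNA sensor MDA5 (0.40, adjusted p 0.0377). Ddx58, which encodes RIG-I, the substrate of Trim25, had -0.11 ± 0.14 (SE). Of 5 DNA sensing genes 4 were positive (median 0.20) and 0 passed, led by Zbp1 (0.83 ± 0.27), Trex1 (0.50 ± 0.25) and Mb21d1, which encodes cGAS (0.20 ± 0.12).

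All 5 genes of Isg15 conjugation were positive (median 0.38), and 1 of 5 rose with the block (background 1.36%). It was Usp18, the protease that removes Isg15 (0.88, adjusted p 0.00314 in edgeR, 0.883 without the block). Herc6 (0.38) and Ube2l6 (0.38), a ligase and a conjugating enzyme for Isg15, did not pass. In the receptor and JAK-STAT chain 13 of 14 were positive (median 0.21) and 0 passed in either fit, with Irf1 (0.39 ± 0.12) and Ifnar1 (0.24 ± 0.12) among those of smallest p. The TAK1 and NF-kB chain, on which Trim30a acts, had a median of 0.04, with 7 of 10 positive and 0 called. Its members Tab3 and Tab2 had -0.21 ± 0.10 and 0.14 ± 0.10 (log2 fold change and SE).

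The reference antiviral genes had larger values than the TRIM members. All 18 were positive, with a median of 0.61 and a range of 0.15 to 0.93. None passed without the block, and 10 of 18 rose with it (background: 1.36% of tested genes called in either direction). Among them were Oas3 (0.70), Oasl1 (0.81) and Rsad2 (0.85), with adjusted p of 0.0115, 0.0140 and 0.00477 in edgeR. Of the 18, 16 were higher in the KO in all 3 pairs (background 15.1%) and 9 had all KO libraries above all controls (background 3.43%). Their pair medians were 0.87, 0.59 and 0.45, against 0.41, 0.18 and 0.02 for the TRIM members, so the list differed in all 3 numbers. These lists were chosen with earlier results of these data known and were described with the same libraries. The difference between them was not tested.

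**Figure D5:**
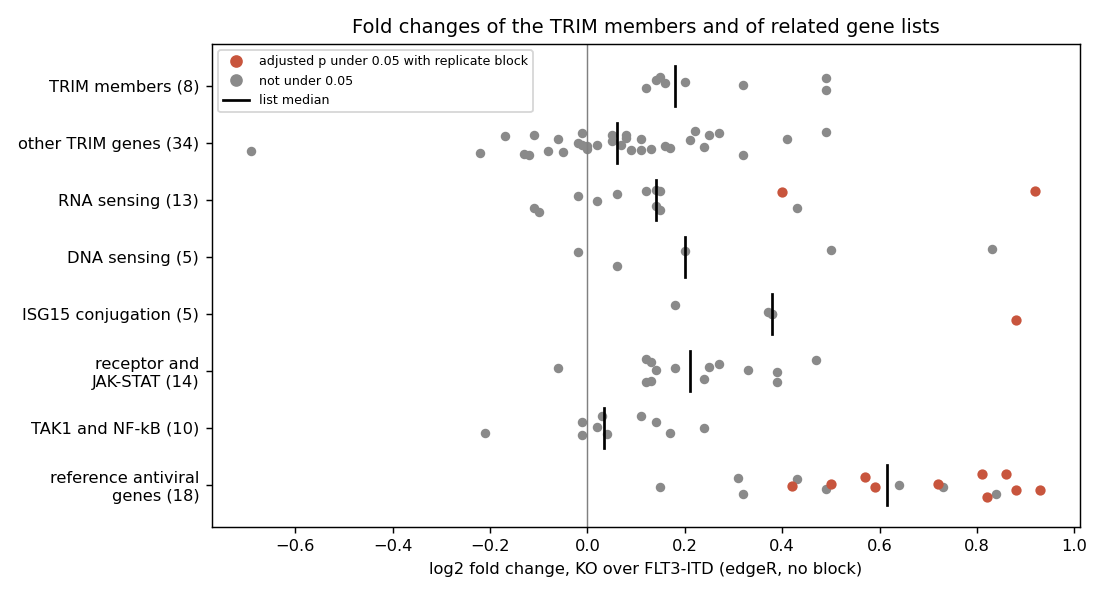
Log2 fold change of KO over FLT3-ITD (x axis, edgeR without a block) for each tested gene of the 8 TRIM members, the 34 other TRIM genes and 6 related lists (rows, with the number tested; vertical scatter is for display). Black bars mark list medians, from 0.04 for TAK1 and NF-kB to 0.61 for the reference antiviral genes, and red points are genes with an adjusted p under 0.05 with the replicate block, of which the TRIM members have none.

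The members varied together to different degrees over the 6 libraries, which are described by Pearson's r of log2 CPM. Trim30a and Trim30d had r = 0.99, and Trim12c had 0.97 with each of them. Trim14 had r of 0.13 to 0.27 with Trim12a, Trim12c, Trim25, Trim30a and Trim30d, and its highest value was 0.81, with Trim21. All of these values rest on 6 points that share libraries and group, and KO replicate 1 is far from the rest. Among 12511 other genes, those most like the members' mean profile were Sh3bp4 (r = 0.999), Atrip (0.999), Trex1 (0.998), Pfkfb3 (0.997) and Glud1 (0.995). Atrip and Trex1 overlap on the same strand by 1802 bases, so their counts may share reads.

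Tested genes other than the members were also described by the promoter core. Of 102 with the longer core GAAANNGAAAC, 66.7% had a positive fold change (median 0.081), 1 rose and 0 fell without the block. Of 9181 without it, 49.9% were positive, 0 rose and 1 fell (background: 2 rose and 19 fell among 13217 genes). With the shorter core, 56.4% of 358 were positive (median 0.029). The members with the longer core, Trim12a, Trim12c, Trim30a, Trim30d and Trim34a, ranged from 0.14 to 0.49. Trim21, with the shorter core alone, had 0.15, and Trim25, with neither in its window, had 0.16. Among non-members of the cluster, Trim5 with the longer core had 0.24 and Trim30c with neither core had 0.49.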

How the data were processed

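RNA-seq libraries of 3 FLT3-ITD and 3 FLT3-ITD miR-155 KO pools were analysed from 1 deposited table. Per the file headers, it holds whole-number counts per gene, which the authors deposited without normalization, and FPKM values, which the authors had scaled per gene and library (the FPKM to count ratio between libraries varied by 0.0%). It also holds the authors' log2 fold changes and adjusted p-values. The submitters' processing notes name Novoalign 2.08.01, DESeq2 1.10.1 and mm10. How reads were counted, with which annotation and whether by strand, is not given in the sources used here. Of 22475 identifiers, 21966 matched GENCODE M21.

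Counts were tested with edgeR 4.0.16 in R 4.3.3 (TMM normalization, filterByExpr with minimum count 10 and minimum total 15, quasi-likelihood F test on group, two-sided, Benjamini-Hochberg over 13217 genes, threshold 0.05), and checked on simulated data. All 8 members passed the filter. Each SE was derived from the F statistic. CPM are counts over TMM-scaled library sizes, and log2 CPM used a prior count of 2. A count of 0 allows up to 3 counts, or 0.325 to 0.459 CPM, covering counting error only. DESeq2 1.42.0, limma-voom (limma 3.58.1), other size factors, filters and library sizes, a replicate block, a threshold of 0.1 and leaving out libraries were the alternatives. Deviations from group means correlated by r = 0.573, 0.526 and 0.219 between libraries of equal number 1, 2 and 3, each above the limit of 0.1 for treating numbers as pairs. The labels state no shared litter or day, so the pairing rests on the data. Of the unequal combinations, 1 lay above 0.1 (control replicate 3 with KO replicate 2, 0.133).

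Named genes were all members, the 4 other TRIM genes of smallest p, the other cluster genes, the 3 genes of smallest p per list and the 5 most like the members' mean profile (mean log2 CPM of at least 1). Ddx58, Bst2, Trim28 and the TRIM genes named for a motif were added after their values were seen. Members and lists were chosen with earlier results of these data known. The marker genes Adgre1, Jchain and Hbb-b1 matched no symbol. For the receptor and JAK-STAT list, 1 gene that the rule names is not reported here.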

Additional observations from a re-analysis of the deposited data

How the results depend on the processing

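None of the 8 members was called under any of the 16 alternative fits or at a threshold of 0.1, and 126 of 128 member values kept their direction. The exceptions were of Trim12a, at -0.025 without both libraries of number 1 and from -0.028 (without KO replicate 1) to 0.236 when 1 library was left out. Leaving out single libraries gave a median over the members of 0.091 to 0.281. The number of genes called over all genes (21) became 180 with the replicate block, 97 without a low-count filter, 127 with DESeq2, 32 at a threshold of 0.1, 10 without both libraries of number 2, 6 without both of number 3, and 0 to 27 when 1 library was left out (0 without FLT3-ITD replicate 1 or 3, with 766 and 356 genes at an unadjusted p under 0.05). Fits with fewer libraries have fewer samples, and the cause of the other changes was not tested. Of 512 values of 32 other named genes, 9 newly passed, 0 no longer passed and 7 reversed, all of genes that did not pass: leaving out 1 library gave -0.301 to 0.067 for Trim6, -0.286 to 0.033 for Kit and -0.190 to 0.036 for Flt3, and Flt3 was 0.049 without both libraries of number 3. The replicate block changed the call of Irf7, Ifih1, Usp18, Oas3, Oasl1, Rsad2 and Gm26667 (-2.20, adjusted p 0.0377 in edgeR, 0.274 without it) and of no other gene named with a fold change. At this depth Trim34b and Trim30e-ps1 could not be tested.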
